A study of Mus musculus with 6 samples.

Results

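The heat shock protein, DNAJ and chaperonin genes were described in human acute myeloid leukemia (AML) cells recovered from mice. Members were every row of the deposited expression table whose symbol belongs to the HSPA, HSPB, HSPD, HSPE, HSPH or HSP90 families, to the DNAJ family, to the TRiC chaperonin (TCP1 and CCT2 to CCT8) or to BAG1 to BAG6, together with HSF1, HSF2, ST13, STIP1 and AHSA1. Matching by symbol gave 84 of 13892 rows. The AML had been grown in NSG mice, a strain without functional lymphocytes, from hematopoietic stem cells of human origin into which NPM1c, a cytoplasmic mutant of nucleophosmin, had been transduced. Moribund animals from 3 separate transductions gave bone marrow that was sorted into a bulk leukemic population (GFP+ CD33+) and a leukemic stem cell population (LSC, GFP+ CD33+ CD123+), with 3 libraries each. All cells in both groups therefore carried the NPM1c vector, for which GFP stood as the marker, and no group without NPM1c was compared here. The bulk gate did not mention CD123, so bulk cells may include CD123+ cells. The numbers 1, 2 and 3 name the mouse, and a bulk and an LSC library of the same number came from the same animal. Neither the age of the mice nor any treatment of them is given in the sources used here.

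Molecular chaperones bind unfolded or partly folded proteins and release them in cycles driven by ATP. HSP70 proteins are loaded with clients by J-domain proteins (the DNAJ family) and reset by nucleotide exchange factors, which include the HSP110 and BAG proteins, and HSP90 then acts late on kinases, receptors and other clients. HSF1 switches on the inducible cytosolic members after heat or proteotoxic stress, whereas the chaperones of the endoplasmic reticulum (ER) answer to the unfolded protein response and mitochondria hold a set of their own.

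Values are CPM (reads scaled to a common library size) or the deposited log2 CPM. Differences are always LSC minus bulk on the log2 scale. Levels of different genes were not ranked, because CPM is not scaled to gene length. Adjusted p-values are from limma with Benjamini-Hochberg adjustment over 13755 genes, without the mouse (unblocked) or with the mouse as a block, at a threshold of 0.05. The main test is the unblocked one, and calls with the block are named as such. Library totals in the table ranged from 10669560 to 14933494 reads. MTRNR2L rows, which resemble mitochondrial ribosomal RNA, took 27.2% to 70.0% of them, most in bulk replicate 1. That library kept 3423878 reads outside those rows, and the remaining 5 kept 6132431 to 9571165. IL3RA, which encodes CD123, was at 2.01 ± 0.424 CPM in bulk and 108 ± 51.7 CPM in LSC (SD, n = 3), and CD33, shared by both gates, at 8.57 ± 4.31 CPM in bulk and 5.34 ± 3.67 CPM in LSC (SD, n = 3).

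Markers of other cells and states also moved between the populations. All 13 plasmacytoid dendritic cell markers were higher in LSC in both fits, with summed levels of 176 to 451 CPM in bulk and 1973 to 3550 CPM in LSC, and LILRA4, GZMB and NRP1 had 0 reads in a bulk library. The 13 include IL3RA, the gene of the CD123 gate, so its difference followed from the sort. IL3RA gave 48.0 to 140 CPM of the LSC sums. The 10 proliferation markers summed to 3326 to 6817 CPM in bulk and 857 to 1449 CPM in LSC, with 3 lower unblocked and 6 lower with the block. The 10 granulocyte markers summed to 4082 to 8101 CPM in bulk and 928 to 3356 CPM in LSC, with 0 called unblocked and 8 lower with the block. The 7 erythroid markers in the table summed to 174 to 739 CPM in bulk and 56.1 to 173 CPM in LSC, with 2 lower unblocked and 6 lower with the block. Monocyte markers (5 in the table) summed to 672 to 1071 CPM in bulk and 112 to 324 CPM in LSC, and the 9 B lineage markers to 149 to 1049 CPM and 133 to 211 CPM. Of 4 monocyte markers tested, 1 was lower unblocked and 2 with the block. Of 8 B lineage markers tested, 2 were lower unblocked, and 1 was higher and 3 lower with the block. Of all genes, 2.71% were higher and 1.33% lower unblocked, and 8.25% and 7.71% with the block. The 7 immediate early genes in the table, a sign of handling stress, summed to 150 to 349 CPM in bulk and 186 to 504 CPM in LSC, ranges that overlap, although the LSC library was the higher one in each of the 3 mice. None of the 7 was called unblocked, and 0 were higher and 1 lower with the block. The part of these differences in the chaperone results was not tested. In sorted populations, fewer cells of a type and less RNA per cell cannot be told apart.

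The chaperone genes did not move together. With the mouse as a block, HSP90AA1, HSP90AB1, HSPA8, HSPA4L, HSPD1, BAG2, BAG4 and the J-domain genes DNAJC2 and DNAJC8 were lower in LSC. The ER cochaperones DNAJB9 and DNAJB11 and the J-domain genes DNAJB6 and DNAJC22 were higher in that fit, so J-domain genes went both ways. All 84 members passed the filter of 1 CPM in 3 libraries. In the unblocked fit 1 member was higher (1.19%, beside 2.71% of all genes tested) and 0 were lower (beside 1.33% of all genes). At an unadjusted p under 0.05, 6 members were higher and 14 lower in that fit, together 23.8%, beside 20.2% of all genes. Of the 13755 genes tested, 1402 were higher and 1383 lower at that limma p-value. The lean of the members toward lower was not tested. With the block, 4 members were higher (4.76%, beside 8.25% of all genes) and 9 were lower (10.7%, beside 7.71%). The share higher was under that of all genes and the share lower was over it, and neither departure was tested. The block counts hung on which animals were used: 2 higher and 1 lower without mouse 1, 3 and 1 without mouse 2, and 8 and 17 without mouse 3. Counts over all genes, given in the closing section, moved too. Fewer genes were lower without mouse 1 or mouse 2, and more were higher and lower without mouse 3, so this dependence was not particular to the members. DNAJB9, DNAJC22 and HSP90AA1 were called with the block in each of these 3 two-animal fits. DNAJB6 was called in 2 of them, BAG2 in 0 and each of the other 8 in the fit without mouse 3 only. Such a fit has almost no residual degrees of freedom per gene, so its calls lean on the variance estimated across genes. The fits also share animals, so a call in each of them is not independent replication.

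Across the 84 members, 36 differences were positive and 48 negative, with a median of -0.15 beside -0.0036 for all genes. Without bulk replicate 1, the library with the fewest reads outside MTRNR2L rows, the median of the members was 0.01. Per mouse the median was -0.12, -0.06 and 0.0032, beside 0.09, 0.0075 and -0.03 for all genes. The 3 LSC libraries lay wholly above the 3 bulk libraries for 7 members (8.33%, beside 13.2% of all genes) and wholly below them for 15 (17.9%, beside 11.9%). The LSC library was the higher one in each of the 3 mice for 25 members, beside 27.3% of all genes, and the lower one in each for 24, beside 25.8% of all genes.

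**Figure D1:**
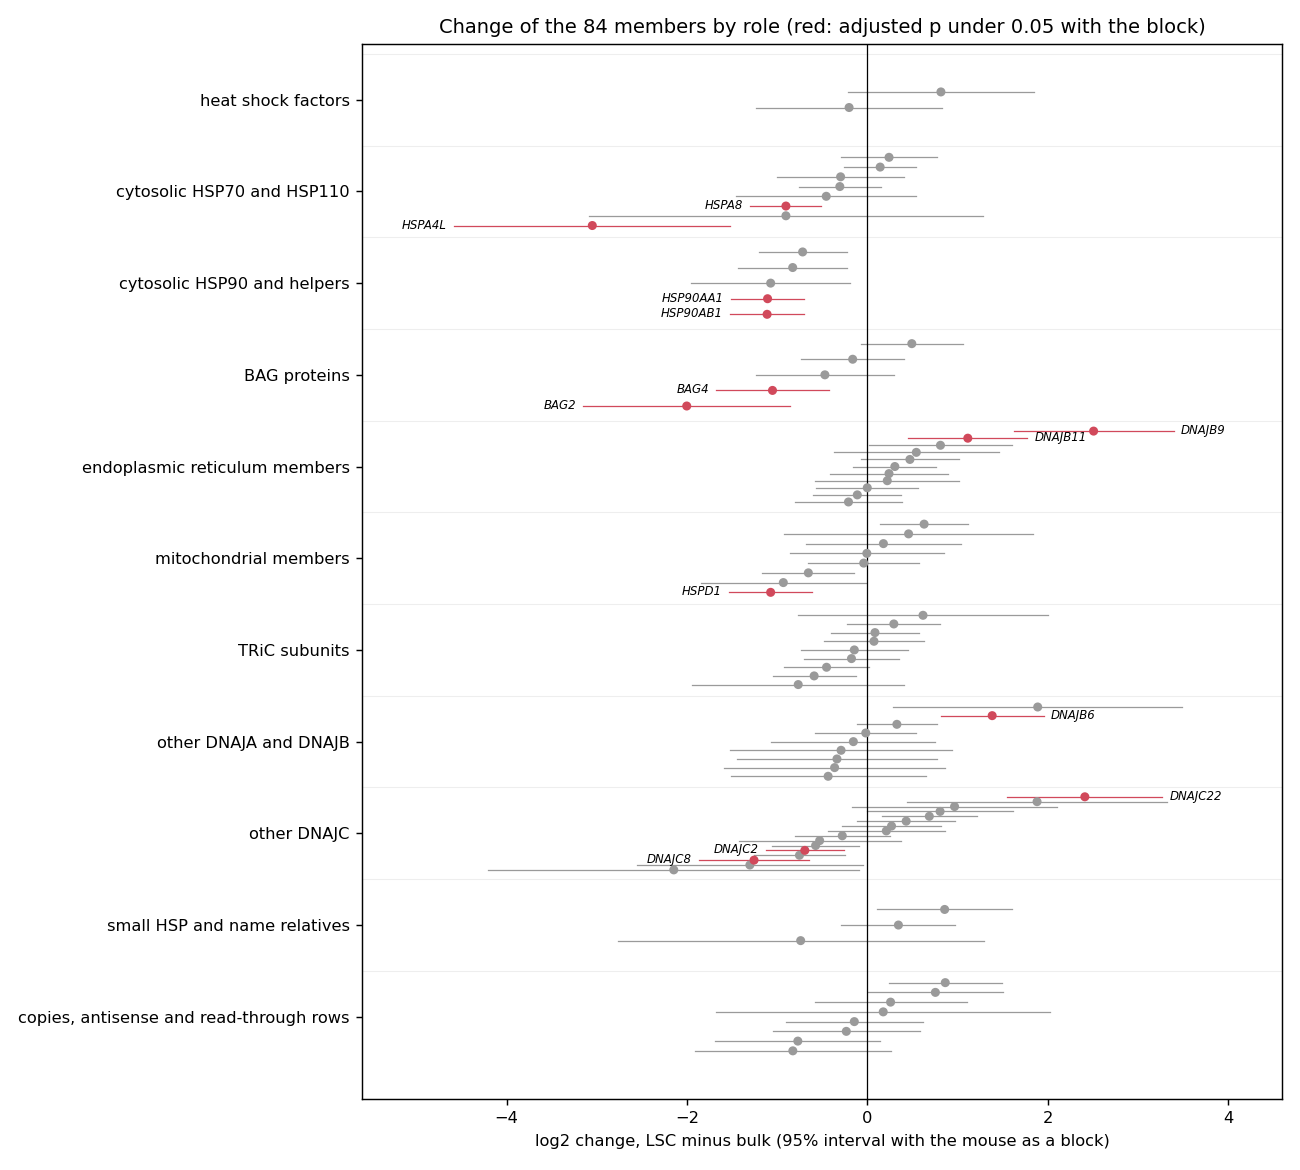
Log2 difference, LSC minus bulk, of each of the 84 members (points) with its 95% interval from the fit with the mouse as a block (lines), arranged by role. Red marks the 13 members past the adjusted threshold of 0.05 in that fit; all 5 cytosolic HSP90 points lie left of 0, and 8 of 11 ER points lie right of it.

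Cytosolic HSP90 and its helpers gave the most uniform group. All 5 members (HSP90AA1, HSP90AB1, STIP1, AHSA1 and ST13) were at a lower level in LSC than in bulk in each of the 3 mice, with a median difference of -1.07. None passed the unblocked test and 2 were lower with the block (40%, beside 7.71% of all genes), a departure that was not tested. HSP90AA1, the stress-responsive cytosolic HSP90, stood at 1908, 758 and 1191 CPM in bulk replicates 1, 2 and 3 and at 893, 410.1 and 471 CPM in LSC replicates 1, 2 and 3. Within each mouse the LSC library was the lower one, although LSC replicate 1 exceeded bulk replicate 2. The mean was 1286 ± 581 CPM in bulk and 591 ± 263 CPM in LSC (SD, n = 3), a log2 difference of -1.11 with a standard error of 0.41 (limma adjusted p = 0.180 unblocked, 0.00542 with the block, block interval -1.51 to -0.70).

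HSP90AB1, the constitutive cytosolic HSP90, stood at 768, 538 and 338 CPM in bulk and 335, 228 and 181 CPM in LSC. The groups did not overlap, by a narrow margin between bulk replicate 3 and LSC replicate 1, and mouse 3 was lowest in both. Its log2 difference was -1.11 with a standard error of 0.37 (limma adjusted p = 0.133 unblocked, 0.00543 with the block, block interval -1.52 to -0.70). Per mouse it was -1.20, -1.24 and -0.90. The log2 ratio of HSP90AA1 to HSP90AB1 within a library was 1.21 ± 0.67 in bulk and 1.21 ± 0.32 in LSC (SD, n = 3), so the pair differed between populations to a like extent on average, with ratios that overlap.

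The HSP90 helpers had differences of similar direction that missed the threshold. ST13 (HIP), which binds HSP70 during transfer to HSP90, was at 128, 122 and 98.8 CPM in bulk and 67.2, 66.7 and 77.4 CPM in LSC. Its groups did not overlap, and the difference was -0.72 with a standard error of 0.26 (limma adjusted p = 0.168 unblocked, 0.0537 with the block). STIP1 (HOP), the adaptor that bridges HSP70 and HSP90, was at 34.6, 26.6 and 22.1 CPM in bulk and 20.5, 12.4 and 14.2 CPM in LSC, again without overlap (-0.83, limma adjusted p = 0.226 unblocked, 0.0674 with the block). AHSA1, the activator of the HSP90 ATPase, was at 14.4, 19.1 and 11.3 CPM in bulk and 13.2, 5.96 and 4.23 CPM in LSC. LSC replicate 1 lay inside the bulk range of AHSA1, and the difference of -1.07 did not pass (limma adjusted p = 0.256 unblocked, 0.0943 with the block).

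**Figure D2:**
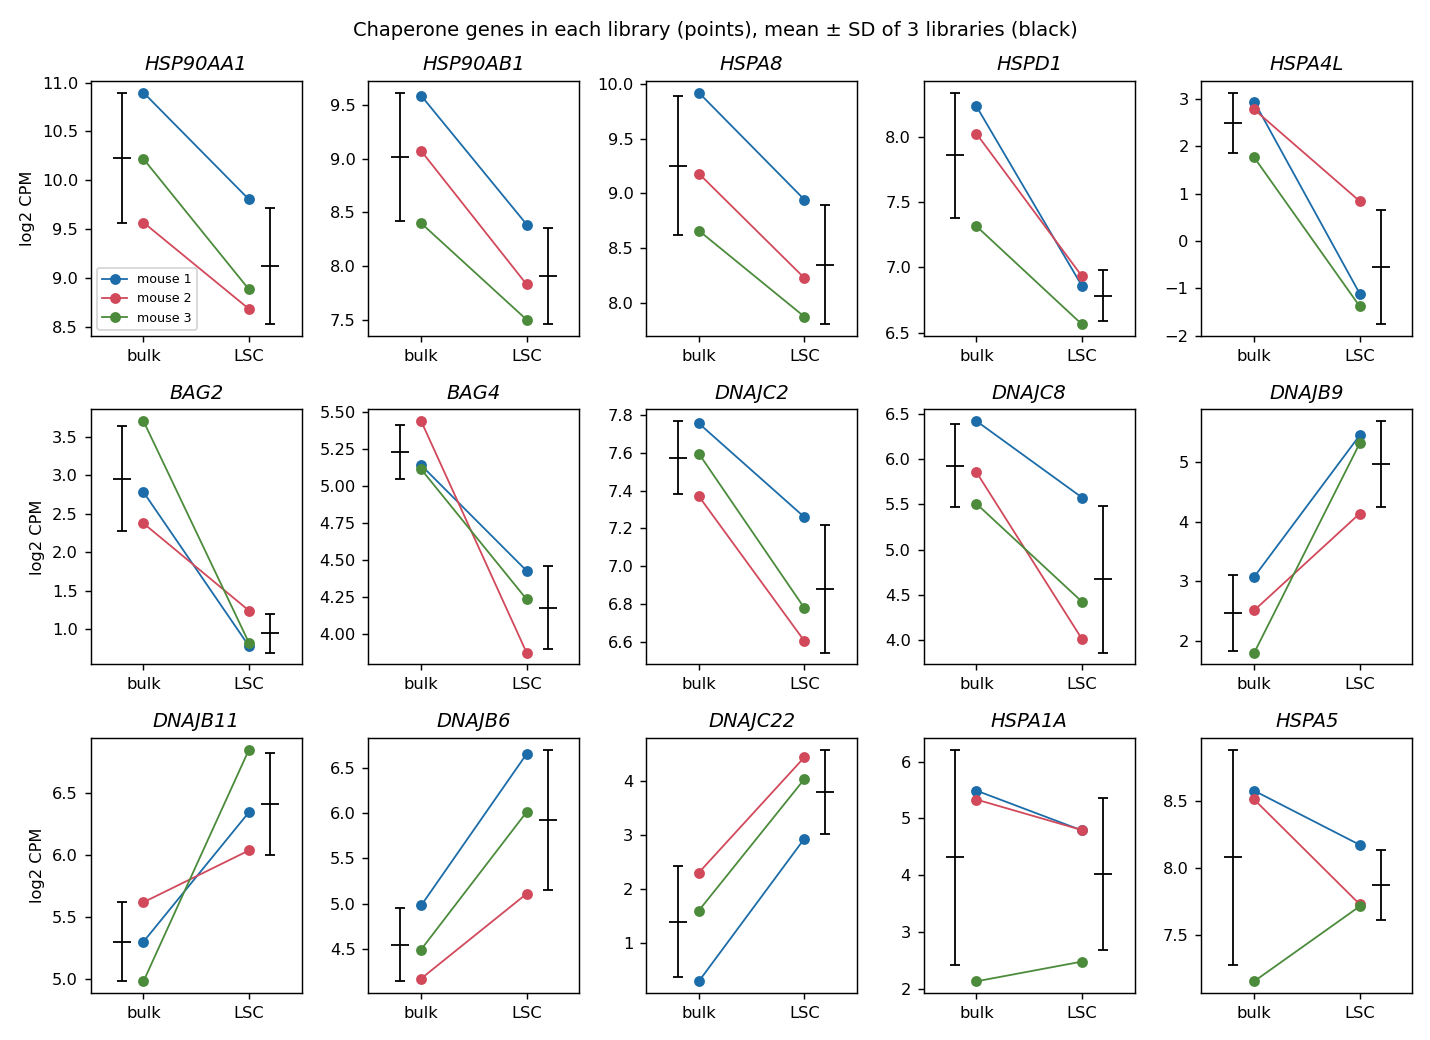
Log2 CPM of 15 chaperone genes in each library (points), with lines joining the bulk and LSC libraries of a mouse and black bars for the mean ± SD of 3 libraries. HSP90AA1, HSP90AB1, HSPA8 and HSPD1 slope down in all 3 mice and DNAJB9, DNAJB11, DNAJB6 and DNAJC22 slope up, while HSPA1A and HSPA5 take different directions in different mice.

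Among the 8 cytosolic HSP70 and HSP110 genes, 2 were lower with the block (25%, beside 7.71% of all genes) and 6 did not pass, with a median of -0.38. HSPA8, the constitutive HSC70, stood at 968, 581 and 405 CPM in bulk and 493, 300.3 and 235 CPM in LSC. Levels overlapped between the groups, because mouse 1 was high and mouse 3 low in both, but every mouse had less in LSC (-0.97, -0.95 and -0.78). The log2 difference was -0.90 with a standard error of 0.39 (limma adjusted p = 0.237 unblocked, 0.0111 with the block).

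HSPA4L, an HSP110-type exchange factor, had the largest negative difference of the members. It stood at 7.70, 6.86 and 3.39 CPM in bulk and 0.443, 1.78 and 0.365 CPM in LSC, from 179 and 39 reads summed over each group. All LSC libraries lay below all bulk libraries, and its log2 difference was -3.05 with a standard error of 0.78 (limma adjusted p = 0.0667 unblocked, 0.0188 with the block). The size of that difference rests on few LSC reads. Its close relative HSPA4 was at 128, 103 and 105 CPM in bulk and 92.4, 93.0 and 85.6 CPM in LSC, a difference of -0.31 that did not pass (limma adjusted p = 0.529 unblocked, 0.326 with the block). The log2 ratio of HSPA4L to HSPA4 was -4.30 ± 0.56 in bulk and -7.05 ± 1.17 in LSC (SD, n = 3), without overlap.

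HSPH1, the HSP110 best known as heat-inducible, was at 401, 146 and 272 CPM in bulk and 454, 160.1 and 294 CPM in LSC. The libraries of a mouse were close to each other and the mice were far apart, so that 98.6% of its sum of squares lay between mice (difference 0.14, limma adjusted p = 0.888 unblocked, block interval -0.26 to 0.54). HSPA14, which works at the ribosome, had a difference of 0.24, and HSPA1L, a testis-type HSP70, varied from 0.127 to 7.09 CPM within LSC (-0.90). Neither passed.

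The stress-inducible HSP70 genes HSPA1A and HSPA1B are nearly identical in sequence, so reads may have been shared between their rows. HSPA1A was at 44.9, 40.2 and 4.35 CPM in bulk and 27.6, 27.7 and 5.54 CPM in LSC. HSPA1B was at 53.1, 38.3 and 5.37 CPM in bulk and 28.2, 14.0 and 10.7 CPM in LSC. Both genes were low in mouse 3 in either population, lower in LSC than in bulk in mice 1 and 2, and higher in mouse 3. Their summed level was 97.9, 78.5 and 9.72 CPM in bulk and 55.7, 41.7 and 16.3 CPM in LSC. The difference was -0.30 for HSPA1A (limma adjusted p = 0.883 unblocked, 0.548 with the block, block interval -1.0 to 0.40) and -0.46 for HSPA1B (limma adjusted p = 0.782 unblocked, 0.514 with the block), and the sign of both turned when bulk replicate 1 was left out (0.29 and 0.17). Without bulk replicate 2 the HSPA1A difference was 0.21, and without LSC replicate 3 it was 0.47. With the block and without mouse 3 HSPA1B passed as lower (limma adjusted p = 0.0010), and without mouse 2 its difference was 0.04.

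The factors that drive the inducible genes were at low levels and neither passed. HSF1, the main heat shock factor, was at 3.94, 2.71 and 2.37 CPM in bulk and 6.06, 6.28 and 3.65 CPM in LSC, higher in LSC in each mouse with overlapping groups (0.81, limma adjusted p = 0.395 unblocked, 0.249 with the block). HSF2, which can pair with HSF1, was at 9.93, 4.66 and 12 CPM in bulk and 4.88, 9.57 and 7.80 CPM in LSC, with mouse 2 opposite to the others (-0.20, limma adjusted p = 0.847 unblocked, 0.793 with the block). That HSF2 difference was 0.07 without bulk replicate 3 and 0.07 without LSC replicate 1. A list of 11 heat-inducible members, of which 9 were in the table, had 7 negative and 2 positive differences with a median of -0.46, with 0 called unblocked. With the block 0 were higher and 3 lower (33.3%, beside 7.71% of all genes), and that departure was not tested. The 3 were HSP90AA1, HSPD1 and HSPA8, and HSPA8 is the constitutive HSC70. The inducible HSPA1A, HSPA1B, HSPH1 and DNAJB1 were called in neither fit. HSPA6 and BAG3 had no row in the table and could not be read.

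The 5 BAG proteins with a row (BAG3 had none), from a family that includes nucleotide exchange factors of HSP70, had 4 negative differences and 1 positive. BAG2, a chaperone partner that inhibits the ubiquitin ligase CHIP, was at 6.85, 5.17 and 13 CPM in bulk and 1.70, 2.35 and 1.75 CPM in LSC. The LSC libraries were close together and all lay under the bulk range (-2.0 with a standard error of 0.53, limma adjusted p = 0.0745 unblocked, 0.0306 with the block). BAG4, a silencer of death receptor signalling, was at 35.3, 43.4 and 34.6 CPM in bulk and 21.5, 14.6 and 18.8 CPM in LSC, also without overlap (-1.05 with a standard error of 0.31, limma adjusted p = 0.101 unblocked, 0.0338 with the block). BAG4 had 88.2% of its sum of squares between populations and 1.0% between mice. BAG1, a nucleotide exchange factor of HSP70, was at 17.8, 25.7 and 18.7 CPM in bulk and 26.8, 36.1 and 24.7 CPM in LSC, higher in LSC within each mouse but overlapping (0.49, limma adjusted p = 0.430 unblocked, 0.211 with the block). BAG5 (-0.16) and BAG6 (-0.47) did not pass.

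The 11 ER members had the highest median of the larger roles, 0.30, with 8 positive and 3 negative differences. In this group 1 member was higher unblocked (9.09%, beside 2.71% of all genes) and 2 with the block (18.2%, beside 8.25%), and 0 were lower. These departures were not tested. DNAJB9 (ERdj4), a J-domain cochaperone of the ER HSP70 and a target of the unfolded protein response, was the member called in both fits. It was at 8.39, 5.67 and 3.45 CPM in bulk and 43.7, 17.6 and 39.7 CPM in LSC. Every LSC library lay above every bulk library, with the largest step in mouse 3. The mean was 5.84 ± 2.47 CPM in bulk and 33.7 ± 14.1 CPM in LSC (SD, n = 3), a log2 difference of 2.51 with a standard error of 0.49 (limma adjusted p = 0.0251 unblocked, 0.00448 with the block, block interval 1.62 to 3.39). The call was kept in 15 of 20 alternative settings. It was lost without bulk replicate 2 (limma adjusted p = 0.0673), bulk replicate 3 (0.0517), LSC replicate 1 (0.0868) or LSC replicate 3 (0.0851), and in limma without a mean-variance trend (0.0689), always with a positive difference.

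DNAJB11 (ERdj3), which delivers clients to the same HSP70, was at 39.4, 49.1 and 31.5 CPM in bulk and 81.4, 65.7 and 116 CPM in LSC. Its groups did not overlap, and mouse 2 had the smallest step. The difference was 1.11 with a standard error of 0.32 (limma adjusted p = 0.0946 unblocked, 0.0338 with the block). HSPA5 (BiP), the HSP70 on which both act, was at 383, 366 and 142 CPM in bulk and 289, 212 and 209.7 CPM in LSC. Mice 1 and 2 had less HSPA5 in LSC and mouse 3 more, and the difference of -0.21 did not pass (limma adjusted p = 0.801 unblocked, 0.619 with the block, block interval -0.80 to 0.38). The log2 ratio of DNAJB9 to HSPA5 was -5.62 ± 0.34 in bulk and -2.91 ± 0.62 in LSC (SD, n = 3), and it was higher in LSC by 2.78, 2.41 and 2.95 in mice 1, 2 and 3. For DNAJB11 to HSPA5 the ratio was -2.78 ± 0.56 in bulk and -1.46 ± 0.52 in LSC (SD, n = 3), higher by 1.45, 1.21 and 1.31. The ratios of both pairs did not overlap between populations and differed by a like amount in the 3 mice.

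HSP90B1 (GRP94), the ER relative of cytosolic HSP90, was at 694, 825 and 419 CPM in bulk and 1027, 719.6 and 864 CPM in LSC. Mice 1 and 3 had more in LSC and mouse 2 less, and the difference of 0.47 did not pass (limma adjusted p = 0.445 unblocked, 0.214 with the block, block interval -0.08 to 1.02). Its log2 ratio to HSP90AB1 was 0.26 ± 0.38 in bulk and 1.84 ± 0.36 in LSC (SD, n = 3), so the balance of ER to cytosolic HSP90 transcripts was higher in each LSC library than in any bulk library. DNAJC3 (p58IPK), a J-domain protein of the unfolded protein response, was at 107, 91.5 and 59.2 CPM in bulk and 152, 101 and 71.0 CPM in LSC, higher in each mouse but overlapping (0.30, limma adjusted p = 0.676 unblocked, 0.339 with the block). DNAJC10 (ERdj5), a disulfide reductase, was at 71.9, 58.4 and 132 CPM in bulk and 81.9, 52.2 and 103 CPM in LSC, with 92.4% of its sum of squares between mice. The other ER members, DNAJC25, DNAJC1, DNAJB12, DNAJB14 and HSPA13, had differences of 0.00 to 0.81 in size and did not pass.

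Of the 8 mitochondrial members, 0 were called unblocked, and 0 were higher and 1 lower with the block (12.5%, beside 7.71% of all genes). HSPD1 (HSP60), the folding chamber of the mitochondrial matrix, was at 301, 260.2 and 159 CPM in bulk and 116, 122 and 94.6 CPM in LSC. The LSC libraries lay below all bulk libraries, with means of 240.1 ± 72.9 CPM in bulk and 111 ± 14.4 CPM in LSC (SD, n = 3). The log2 difference was -1.07 with a standard error of 0.31 (limma adjusted p = 0.0919 unblocked, 0.0104 with the block, block interval -1.53 to -0.61). HSPE1 (HSP10), the lid of that chamber, whose gene lies head to head with HSPD1, was at 84.2, 52.5 and 53.2 CPM in bulk and 114, 74.9 and 102 CPM in LSC. It was higher in LSC in each mouse, with LSC replicate 2 inside the bulk range, and its difference of 0.63 did not pass (limma adjusted p = 0.297 unblocked, 0.0798 with the block, block interval 0.14 to 1.12).

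The log2 ratio of HSPE1 to HSPD1 was -1.91 ± 0.37 in bulk and -0.21 ± 0.44 in LSC (SD, n = 3). It was higher in LSC by 1.81, 1.60 and 1.69 in mice 1, 2 and 3, a narrow spread beside its size. HSPE1 overlaps the read-through row HSPE1-MOB4, which was at 25.7, 19.4 and 16.4 CPM in bulk and 32.1, 45.3 and 33.8 CPM in LSC (0.86, limma adjusted p = 0.182 unblocked, 0.0658 with the block), and reads may have been divided between them. HSPA9 (mortalin), the mitochondrial HSP70, was at 127, 113 and 64.5 CPM in bulk and 89.0, 53.9 and 49.7 CPM in LSC, lower in each mouse but overlapping (-0.65, limma adjusted p = 0.343 unblocked, 0.0809 with the block). DNAJC11, a J-domain protein of the mitochondrial membrane, was at 13, 14.4 and 6.27 CPM in bulk and 5.10, 5.45 and 6.05 CPM in LSC, a difference of -0.93 that did not pass (limma adjusted p = 0.279 unblocked, 0.146 with the block). DNAJA3, DNAJC15, DNAJC19 and DNAJC30 had differences of -0.04 to 0.46, and none of these passed.

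**Figure D3:**
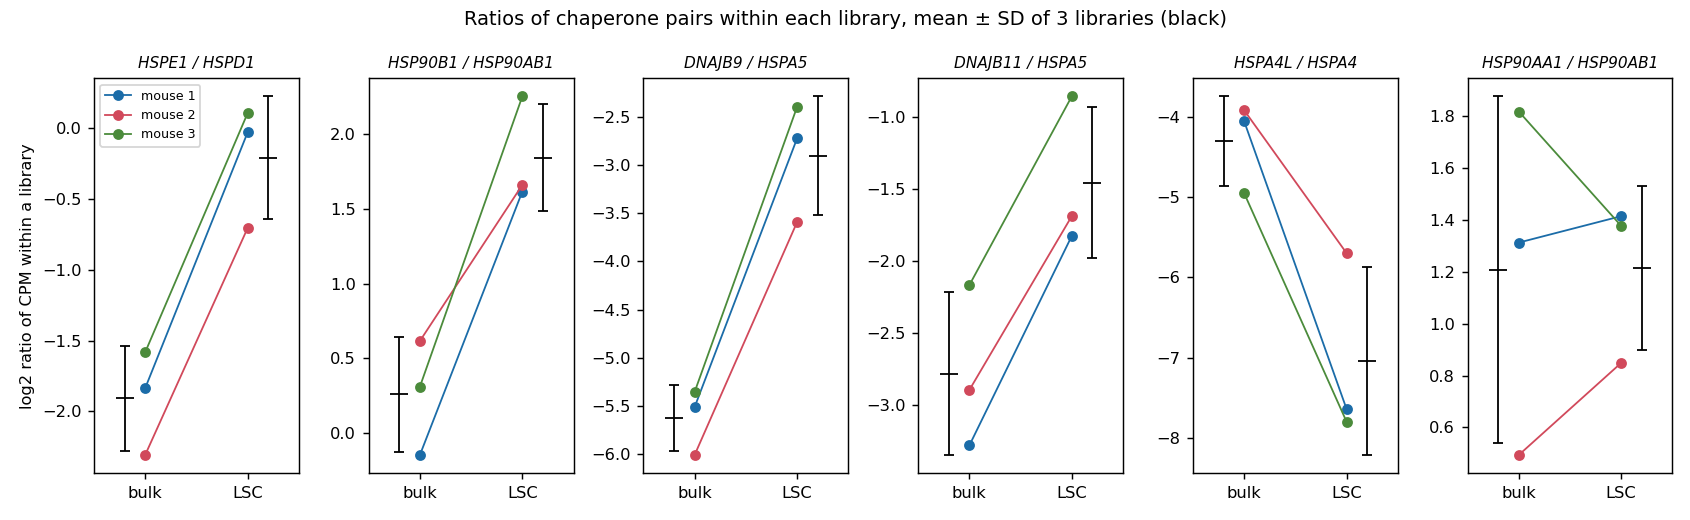
Log2 ratio of CPM between chaperone genes within each library (points, joined by mouse), with the mean ± SD of 3 libraries in black and a separate axis range in each panel. HSPE1 to HSPD1, HSP90B1 to HSP90AB1 and the cochaperones to HSPA5 are higher in every LSC library than in any bulk library, whereas HSP90AA1 to HSP90AB1 overlaps.

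TRiC is the ring complex of the cytosol that folds actin and tubulin. Of its 9 rows, 4 had positive and 5 negative differences, from -0.77 to 0.62 with a median of -0.15, and none passed either fit. TCP1, the alpha subunit, was at 163, 169 and 176 CPM in bulk and 119.6, 128 and 92.7 CPM in LSC, without overlap (-0.59 with a standard error of 0.26, limma adjusted p = 0.238 unblocked, 0.0814 with the block). CCT5, the epsilon subunit, was at 86.8, 77.2 and 71.2 CPM in bulk and 62.4, 59.7 and 49.9 CPM in LSC, also without overlap (-0.45, limma adjusted p = 0.370 unblocked, 0.166 with the block). CCT6B, a testis-type zeta subunit, lay wholly higher at 2.23, 2.12 and 1.09 CPM in bulk and 2.88, 2.28 and 2.84 CPM in LSC, from 55 and 114 reads (0.62, limma adjusted p = 0.603 unblocked, 0.525 with the block). CCT8, the theta subunit, was at 91.3, 70.2 and 64.5 CPM in bulk and 88.2, 81.0 and 106 CPM in LSC, with overlap (0.29). CCT7, the eta subunit, varied most among the LSC libraries, at 3.84, 12.9 and 1.39 CPM. The other subunits, CCT2, CCT3, CCT4 and CCT6A, had differences of -0.18 to 0.08.

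Of the 9 remaining DNAJA and DNAJB genes, 1 was higher with the block (11.1%, beside 8.25% of all genes). DNAJB6, a suppressor of polyglutamine aggregation, was at 31.5, 18.0 and 22.5 CPM in bulk and 101, 34.5 and 64.7 CPM in LSC. The groups did not overlap, and mouse 2 had the lowest level in both (1.38 with a standard error of 0.43, limma adjusted p = 0.113 unblocked, 0.00877 with the block, block interval 0.81 to 1.95). DNAJB1, the main heat-inducible J-domain partner of HSP70, was at 15.1, 13.2 and 6.01 CPM in bulk and 34.6, 3.36 and 4.81 CPM in LSC. LSC replicate 1 alone was above the bulk range, and the difference of -0.36 did not pass (limma adjusted p = 0.832 unblocked, 0.683 with the block). DNAJA1, a partner of cytosolic HSP70, was at 210.1, 145 and 197 CPM in bulk and 279, 216 and 197 CPM in LSC, with overlap (0.33, limma adjusted p = 0.540 unblocked, 0.291 with the block). DNAJB2 had the largest difference of this role, 1.89, but from 28 reads in all of bulk, and it did not pass (limma adjusted p = 0.286 unblocked, 0.102 with the block). The remaining DNAJA2, DNAJA4, DNAJB4, DNAJB7 and DNAJB13 had differences of -0.44 to -0.02.

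The 16 remaining DNAJC genes had 8 positive and 8 negative differences. With the block 1 was higher (6.25%, beside 8.25% of all genes) and 2 were lower (12.5%, beside 7.71%). DNAJC22, a membrane J-domain protein, was at 1.20, 4.91 and 3.01 CPM in bulk and 7.61, 21.7 and 16.4 CPM in LSC. Every LSC library lay above the bulk range and the step was alike in the 3 mice (2.65, 2.14 and 2.44). Its log2 difference was 2.41 with a standard error of 0.63 (limma adjusted p = 0.0698 unblocked, 0.00459 with the block, block interval 1.55 to 3.27).

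DNAJC8, which associates with splicing factors, was at 85.6, 57.8 and 45.4 CPM in bulk and 47.7, 16.1 and 21.4 CPM in LSC, lower within each mouse with a narrow overlap between LSC replicate 1 and bulk replicate 3 (-1.26, limma adjusted p = 0.155 unblocked, 0.0161 with the block). DNAJC2, which works at the ribosome on nascent chains, was at 216, 165 and 194 CPM in bulk and 153, 97.2 and 109.8 CPM in LSC, without overlap (-0.69 with a standard error of 0.28, limma adjusted p = 0.209 unblocked, 0.0410 with the block). DNAJC13, an endosomal J-domain protein, was at 168, 114 and 78.6 CPM in bulk and 77.1, 68.7 and 59.5 CPM in LSC and lay at the threshold with the block without passing (-0.75, limma adjusted p = 0.239 unblocked, 0.050 with the block). DNAJC4 was at 1.03, 1.95 and 0.576 CPM in bulk and 4.14, 3.99 and 3.65 CPM in LSC, apart in level but not past the threshold (1.88, limma adjusted p = 0.154 unblocked, 0.0770 with the block). DNAJC28 was at 3.25, 1.36 and 3.52 CPM in bulk and 0.517, 1.08 and 0.292 CPM in LSC, apart in level but from 28 reads in all of LSC (-2.15, limma adjusted p = 0.198 unblocked, 0.139 with the block). At such levels a library holds few reads, since 3 reads equal 0.514 CPM in bulk replicate 1 and 0.190 to 0.254 CPM in the other libraries. The other 10 DNAJC genes of this role had differences of -1.30 (DNAJC6) to 0.97 (DNAJC5) and did not pass.

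The small heat shock protein HSPB1, which holds unfolded proteins without ATP, was near the filter at 2.05, 1.95 and 0.704 CPM in bulk and 0.443, 1.39 and 0.948 CPM in LSC (-0.74, limma adjusted p = 0.670 unblocked, 0.608 with the block). HSPB11, a protein of intraflagellar transport that shares only the name, was at 8.39, 4.07 and 8.12 CPM in bulk and 14.3, 8.18 and 14.1 CPM in LSC (0.86, limma adjusted p = 0.323 unblocked, 0.110 with the block). HSPBAP1, named for binding HSPB1, had a difference of 0.34 that did not pass. The 8 rows for copies, antisense and read-through transcripts had 4 positive and 4 negative differences and none passed. HSP90AB4P, HSP90B2P, CCT6P1, CCT6P3 and HSPA7 resemble coding members, and DNAJC9-AS1 and DNAJC27-AS1 overlap theirs, so their values and those of their partners are uncertain. HSPA7, a pseudogene of the HSP70 family, was at 5.82, 6.61 and 1.02 CPM in bulk and 15.2, 23.0 and 0.146 CPM in LSC, low in mouse 3 in both populations as HSPA1A was. Without these 8 rows, 4 of 76 members were higher (5.26%, beside 8.25% of all genes) and 9 lower (11.8%, beside 7.71%) with the block.

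**Figure D4:**
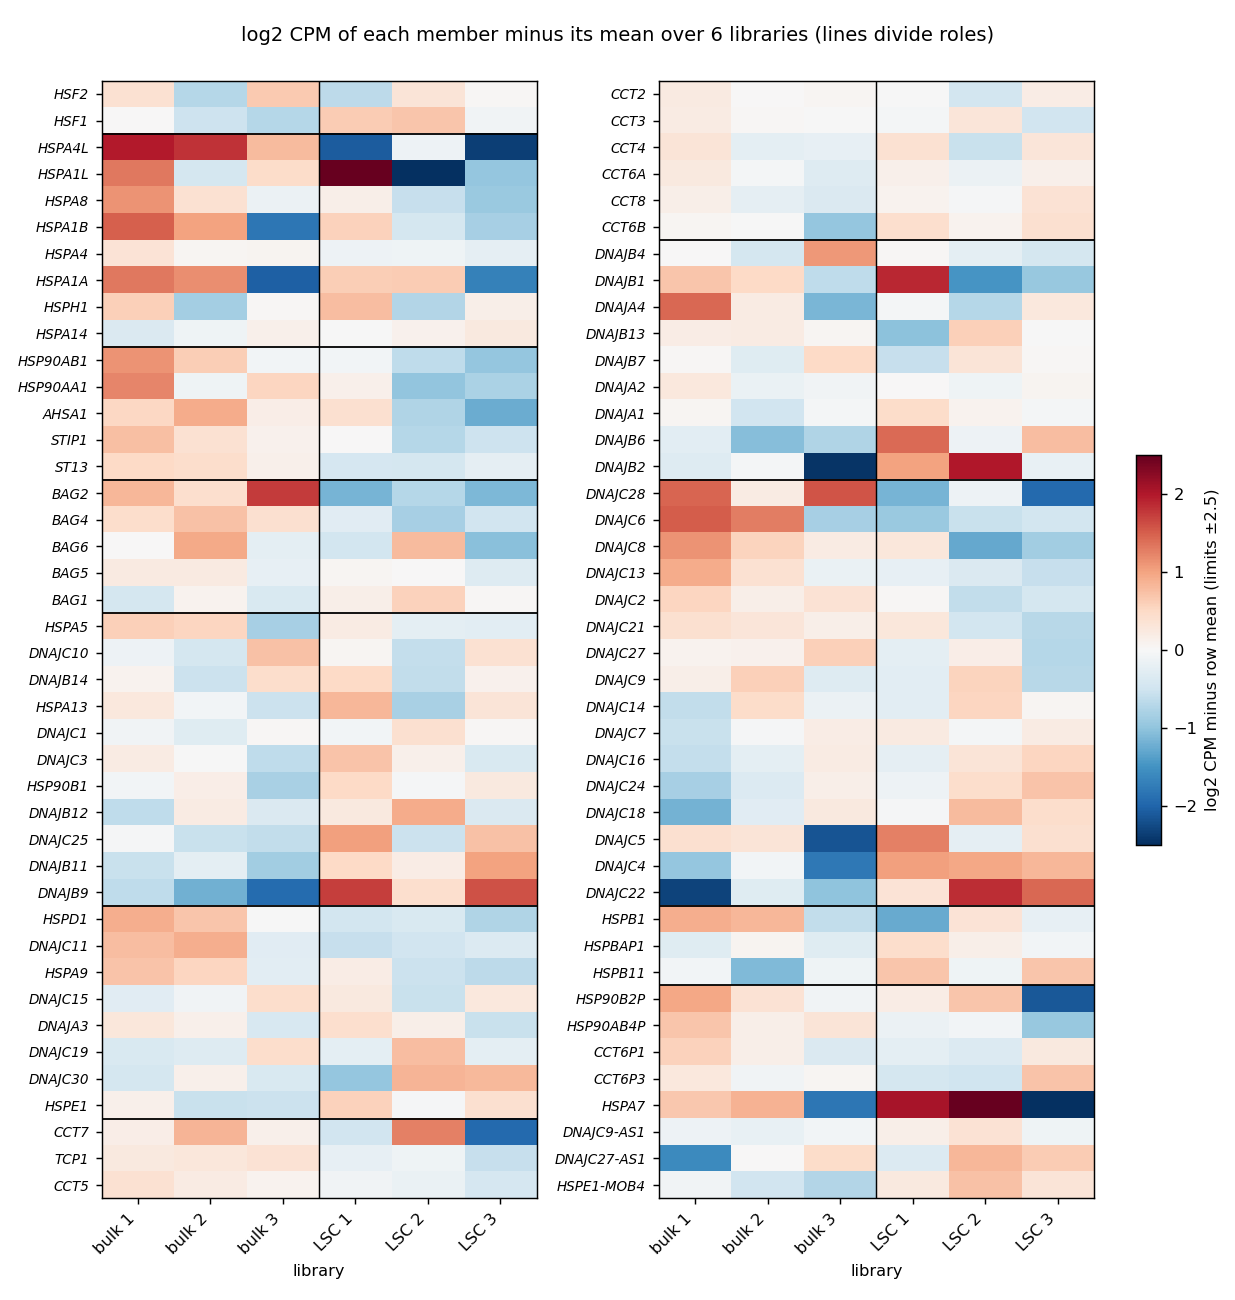
Log2 CPM of each of the 84 members minus its own mean over the 6 libraries, with bulk libraries left and LSC libraries right of the vertical line and roles divided by horizontal lines (the color scale ends at ±2.5). HSPA1A, HSPA1B and HSPA7 are blue in bulk 3 and LSC 3, deeper in bulk 3 for HSPA1A and HSPA1B and deeper in LSC 3 for HSPA7. By contrast HSP90AB1, STIP1 and ST13 are redder in every bulk library than in any LSC library.

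The median share of a member's sum of squares was 35.6% between populations and 40.7% between mice, beside 26.8% and 43.8% for all genes. Populations hold 20% and mice 40% of the degrees of freedom, which are the mean shares of spread expected if neither had an effect. The shares above are medians over genes, which can differ from such means, so 20% and 40% are not values for them to meet. A population effect would also lower the mouse share expected without a mouse effect. Over all genes tested, deviations from group means correlated within the 3 mice at 0.33, 0.35 and 0.30. Single members departed from the median mouse share in both directions. Mouse 3 was the animal with low HSPA1A, HSPA1B and bulk HSPA5 and the largest DNAJB9 step. Mouse 1 had the highest HSP90AA1, HSPA8 and HSPH1 levels in both populations, and its bulk library was the one with the fewest reads outside MTRNR2L rows. By contrast ST13 had 0.82% of its sum of squares between mice and DNAJB11 had 0.45%.

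**Figure D5:**
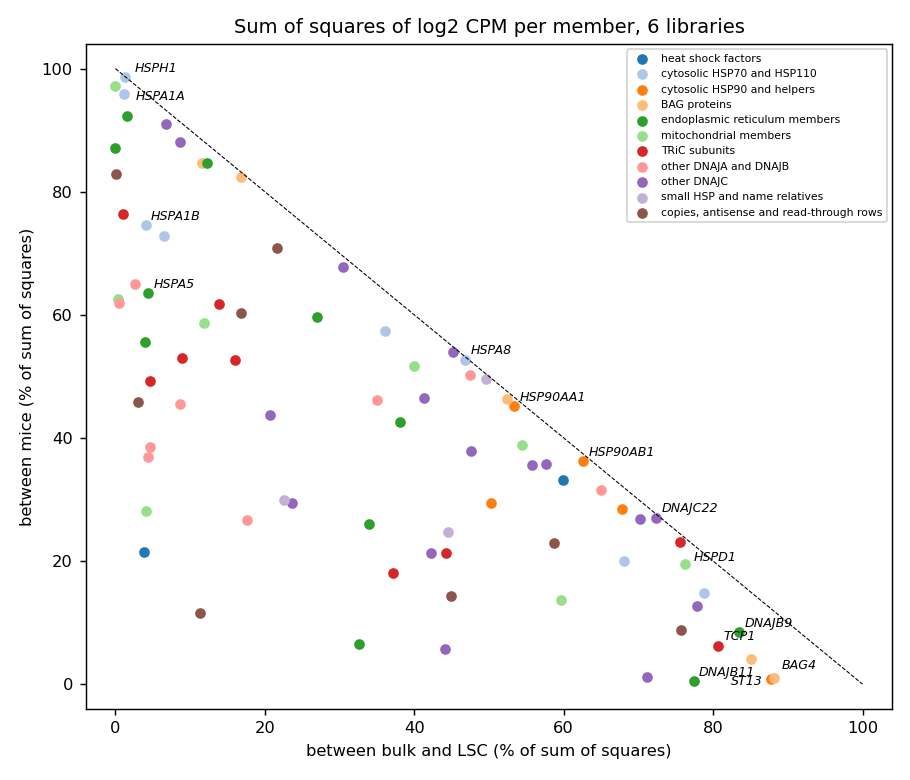
Share of each member's sum of squares of log2 CPM that lay between bulk and LSC (horizontal axis, %) and between the 3 mice (vertical axis, %), colored by role. Points on the dashed line have nothing left over; HSPH1 and HSPA1A lie at the top left with 98.6% and 95.9% between mice, and BAG4 at the bottom right with 88.2% between populations.

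Partner genes outside the name rule were read from lists of known function. Of 22 listed HSP90 cochaperones 21 were in the table, with 0 called unblocked and 0 higher and 2 lower with the block (9.52%, beside 7.71% of all genes). Their directions were mixed, with 9 positive and 12 negative differences and a median of -0.16. FKBP4, an HSP90-binding immunophilin, was at 41.1, 37.6 and 21.1 CPM in bulk and 12.9, 16.2 and 5.25 CPM in LSC, without overlap (-1.63, limma adjusted p = 0.103 unblocked, 0.00782 with the block, and 0.0631 with the block without mouse 1). TRAP1, the mitochondrial HSP90, was at 10.4, 15.3 and 8.0 CPM in bulk and 4.36, 5.52 and 1.53 CPM in LSC, without overlap (-1.70, limma adjusted p = 0.139 unblocked, 0.0252 with the block). It is an HSP90 rather than a cochaperone, and its call counts both in this share and in that of the mitochondrial list below. With the block on 2 mice TRAP1 passed without mouse 3 but not without mouse 1 (0.0917) or mouse 2 (0.115, limma adjusted p). The 14 prefoldin and phosducin-like helpers of TRiC had 0 calls in either fit.

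Among 23 ER chaperones, enzymes and regulators outside the rule, 3 were higher unblocked (13%, beside 2.71% of all genes). With the block 4 were higher (17.4%, beside 8.25%) and 1 was lower (4.35%, beside 7.71%), and these departures were not tested. Of the 23, 16 had positive and 7 negative differences, with a median of 0.37 and medians of 0.11, -0.20 and 0.87 in mice 1, 2 and 3. CALR (-1.17, lower in each mouse), EIF2AK3 (-0.84), SYVN1 (-0.59), ATF6 (-0.19) and ATF4 (0.03) were called in neither fit, so the list did not move as a whole. HERPUD1, a component of ER-associated degradation, was at 16.9, 16.8 and 19.8 CPM in bulk and 242, 124 and 258 CPM in LSC (3.47, limma adjusted p = 0.0010 unblocked). XBP1, the transcription factor of the unfolded protein response that acts on DNAJB9, was at 24.7, 25.2 and 15.8 CPM in bulk and 60.7, 55.1 and 29.0 CPM in LSC, without overlap (1.10, limma adjusted p = 0.149 unblocked, 0.0186 with the block). ERN1 (IRE1), the sensor that splices XBP1 (3.16, limma adjusted p = 0.0035 unblocked), and PDIA4, a disulfide isomerase (2.06, 0.0309 unblocked), were the other two unblocked calls. PDIA4 lost its call in 5 of 20 settings, without bulk replicate 1 (limma adjusted p = 0.0954), LSC replicate 1 (0.0701), LSC replicate 2 (0.0646) or LSC replicate 3 (0.0997) and without a mean-variance trend (0.0876), whereas HERPUD1 and ERN1 kept theirs in all 20. SIL1, a nucleotide exchange factor for HSPA5, was at 7.36, 4.57 and 2.56 CPM in bulk and 1.48, 1.46 and 0.292 CPM in LSC, lower with the block (-2.33, limma adjusted p = 0.153 unblocked, 0.0396 with the block). Among 15 mitochondrial chaperones and proteases, HSCB, a J-domain protein of iron-sulfur assembly, was the 1 higher with the block (6.67%, beside 8.25% of all genes; 1.54, limma adjusted p = 0.163 unblocked, 0.0492 with the block). GRPEL2, an exchange factor of HSPA9, was lower with the block (-1.37, limma adjusted p = 0.138 unblocked, 0.0265 with the block), as was TRAP1 (together 13.3%, beside 7.71% of all genes). The block calls of XBP1, SIL1, HSCB and GRPEL2 held without mouse 3 but not without mouse 1 (limma adjusted p = 0.148, 0.206, 0.273 and 0.141) or mouse 2 (0.119, 0.118, 0.122 and 0.116).

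In the authors' deposited table none of the members had a false discovery rate under 0.05. The lowest in the authors' deposited table was 0.178, for DNAJB9, and 9 members had a p-value under 0.05 there, 5 higher and 4 lower in LSC. Of all rows in the authors' deposited table, 6.2% were higher and 6.21% lower in LSC at that p-value, and the lowest false discovery rate was 0.0813.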

How the data were processed

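A NuGEN Ovation kit amplified the RNA, per the labels' protocols. Bowtie2, RSEM, edgeR and hg19 stand in the submitters' processing notes, without roles. Symbols and build are human, although the organism label gives the host, mouse. The authors' deposited values are log2 CPM on normalized library sizes, with their log2 fold change (coded bulk minus LSC), false discovery rate, p-value and likelihood ratio score, as the file headers name them. All 6 columns share a floor of 0.0197 CPM, and values above it rise in whole steps; removing the floor gave reads (whole within 0.1 for 100% of values), used for depth and CPM. The sources used here do not say whether counting used strand or how reads were shared between copies, and 21 symbols had turned to dates.

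The test was limma (version 3.58.1, R 4.3.3), a two-sided moderated test with a mean-variance trend, run on deposited log2 values of the 13755 genes that reached 1 CPM in 3 or more libraries, with Benjamini-Hochberg adjustment at 0.05. The code was tested on simulated data. Libraries of the same number share a mouse, per the labels. Deviations from group means correlated within the 3 mice at 0.33, 0.35 and 0.30, so the mouse number pairs the samples and the blocked result is printed where it changed a call. Sums of squares per gene were divided into population, mouse and remainder. Alternatives were the block, the block on 2 mice, log2(CPM + 1) and log2(CPM + 5), a filter of 5 CPM or none, upper-quartile rescaling, scaling to reads outside MTRNR2L rows, quantile normalization, eBayes without trend, voom on recovered reads with and without the block, and leaving out each library. Named genes are every member called in either fit, the 2 members of each role with the largest moderated statistic, HSPA1A and HSPA1B, and up to 4 called genes per partner list; others were chosen after their values were seen. Members, lists and roles were chosen with earlier results of these data known. With 3 against 3 libraries the number of animals limits precision, and amplified reads are not independent molecules. Sequences and coordinates are not given, since the reference used here is of mouse.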

Additional observations from a re-analysis of the deposited data

How the results depend on the processing

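Among the 23 members that the rule for named genes picked, the sign of the difference was the same in every setting in which a gene was tested (19 for HSPA4L, HSF1 and HSPB1, which the filter of 5 CPM removed, and 20 for the others) except for HSF2, HSPA1A and HSPA1B. The difference of HSF2 was 0.21 and 0.0066 with the replicate block on 2 mice (without mouse 1 or mouse 3) and -0.61 to 0.071 with each library left out, positive without bulk replicate 3 or LSC replicate 1. That of HSPA1A was -1.39 to 0.47 with each library left out, positive without bulk replicate 1 (0.29), bulk replicate 2 (0.21) or LSC replicate 3. That of HSPA1B was 0.040 with the block without mouse 2, and -1.48 to 0.17 with each library left out, positive without bulk replicate 1. The cause was not tested.

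With the mouse as a replicate block, 4 members were higher and 9 lower, and 1135 genes were higher and 1060 lower, against 1, 0, 373 and 183 unblocked. With the block on 2 mice, members higher were 2, 3 and 8 and members lower 1, 1 and 17 without mouse 1, 2 and 3, genes lower were 344, 296 and 1567, and genes higher were 1747 without mouse 3. Voom on recovered reads with the block gave 5 members higher and 11 lower, and 1216 genes higher and 1217 lower. Members higher and lower were 2 and 1 with log2(CPM + 1); with log2(CPM + 5) 1 was lower, and without a variance trend 0 were higher. Genes lower were 302, 280 and 54 in those 3 settings, and genes higher were 197 without a trend. Leaving out each library gave 0 to 2 members higher, 0 to 1 lower, 168 to 346 genes higher and 38 to 169 lower. The median of the members was -0.013 and -0.041 with the block without mouse 1 or 2, -0.082 with log2(CPM + 5), -0.075 with voom and the block, and -0.17 to 0.012 with each library left out. The calls of single members rest on 3 animals, and bulk replicate 1 is the shallowest library, where a level under 0.514 CPM is fewer than 3 reads.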
